A study of Canis lupus familiaris with 18 samples.

Results

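Neuronatin (NNAT) and 9 other genes of the classical imprinted growth network were followed in the fat of dogs. The genes are NNAT, MEST, PEG3, DLK1, IGF2, PLAGL1, GRB10, CDKN1C, IGF2R and PEG10, and their members are all probe sets whose platform annotation gives 1 of these symbols alone. That rule found 19 probe sets of 8 genes among 42924 probe sets that are not array controls and 15115 gene symbols in the series. CDKN1C and PEG10 had no such probe set and are not analysed here. Of the 19 probe sets, 10 probe sets of 5 genes (NNAT, PEG3, PLAGL1, GRB10 and IGF2R) passed the filter on low values, which 21484 probe sets passed in all. The filter asks for 4 or more of the 18 arrays with a log2 value at or above a floor of 4.

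The study compared fat from 9 intact female beagles, all 4 years old at the labelled age, after 24 weeks of 2 feeding regimes. The 4 control dogs (dogs 1, 3, 4 and 9) received food to hold their starting body weight and are described as lean, and the 5 ad libitum dogs (dogs 2, 5, 6, 7 and 8) ate freely and are described as obese. All dogs ate the same food, Purina Pro Plan Performance Formula, were assigned at random and were sampled after an overnight fast. Each dog gave 1 array of subcutaneous fat and 1 array of gonadal (visceral) fat, so the groups are subcutaneous control, subcutaneous ad libitum, gonadal control and gonadal ad libitum, with 4, 5, 4 and 5 arrays. The dogs were not sampled by cell type, and a level is that of the whole tissue piece.

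Imprinted genes are transcribed mainly from the copy inherited from 1 parent, and most of what is known of them comes from mice and humans. Many act on fetal growth, with paternally expressed genes such as IGF2 tending to favour growth and maternally expressed genes such as IGF2R, GRB10 and CDKN1C tending to restrain it. Several are also studied in fat: NNAT encodes a small membrane proteolipid of the endoplasmic reticulum that resembles regulators of the calcium pump, DLK1 (preadipocyte factor) restrains the conversion of progenitors to adipocytes, and MEST is known in mice for going with fat cell enlargement. The arrays measure total transcript and carry no information on the parental copy.

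All arrays carried adipocyte transcripts, and some carried those of other tissues as well. All 12 adipocyte markers reached the floor in at least 1 array, and between 11 and 12 of them did so in each subcutaneous control array and all 12 in each array of the other groups. Transcripts of skeletal muscle were high in subcutaneous control dogs 3 and 4 and gonadal ad libitum dog 2, with marker scores of 7.19, 6.40 and 7.36 (log2, the median over markers of the array's value minus the gene's median over arrays). Ciliated epithelium transcripts were high in gonadal ad libitum dog 6 and subcutaneous control dog 4, with scores of 6.73 and 4.47. Subcutaneous control dog 4 also had a mesothelium score of 1.53, over 7 of 10 markers. In subcutaneous control dogs 1, 3 and 9 this score was -2.49 to -2.45, and in gonadal control arrays 0.02 to 2.77. That array enters the depot comparison in control dogs, and the part of its mesothelium transcripts there was not tested. Only 1 of 10 ovary markers, INHA, reached the floor in any array. Calls that changed without the 4 arrays high in muscle or ciliated epithelium transcripts are given beside the result or in the closing section. Without them the subcutaneous control group holds only dogs 1 and 9, and the gonadal ad libitum group only dogs 5, 7 and 8. The part of this smaller number of arrays in a lost or gained call was not tested. Subcutaneous ad libitum dog 7 had a muscle score of 1.55 with 11 of 13 muscle markers at the floor, was not among the 4, and was left out with them in a further alternative. The labels note an earlier submission for the subcutaneous arrays alone, so depot and array batch cannot be told apart.

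NNAT was the member with the widest range. Its 3 probe sets are numbered from the brightest: probe set 1 is CfaAffx.13891.1.S1_s_at, probe set 2 CfaAffx.13888.1.S1_at and probe set 3 Cfa.20245.1.S1_s_at. They followed each other over the 18 arrays of 9 dogs, with Pearson r of 0.918 between sets 1 and 2, 0.907 between sets 1 and 3 and 0.994 between sets 2 and 3. The SD of probe set 1 over the 18 arrays was 1.48 on the log2 scale, above that of 97.6% of the 8656 genes tested. This SD contains the feeding difference on which NNAT was selected.

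In subcutaneous fat of the control dogs, NNAT probe set 1 read 9.35, 10.20, 11.02 and 9.36 in dogs 1, 3, 4 and 9. In subcutaneous fat of the ad libitum dogs it read 14.01, 11.44, 13.13, 13.69 and 13.55 in dogs 2, 5, 6, 7 and 8. All 5 ad libitum arrays were above all 4 control arrays, and ad libitum dog 5 lay closest to the controls. In gonadal fat the same probe set read 10.61, 10.67, 12.55 and 10.31 in the control dogs and 13.25, 12.10, 11.30, 12.17 and 12.64 in the ad libitum dogs, in the same order of dogs. Here the groups overlapped: gonadal control dog 4 was above 3 of the 5 ad libitum arrays, while the other 3 control dogs were below all of them.

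**Figure D1:**
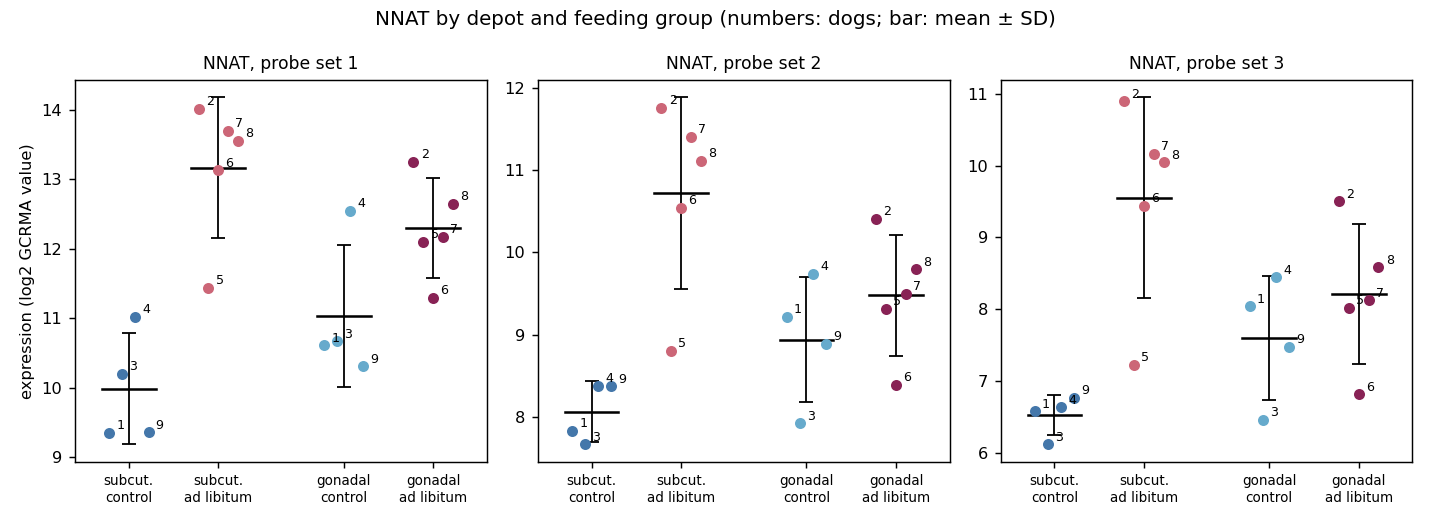
NNAT log2 GCRMA value (y axis) of each array for probe sets 1, 2 and 3, by depot and feeding group (x axis). Points carry the dog's number, the horizontal bar is the group mean and the vertical bar 1 SD (n = 4 or 5). In subcutaneous fat the ad libitum arrays of all 3 probe sets lie above the control arrays, and in gonadal fat the groups overlap.

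The mean level of probe set 1 was 9.98 ± 0.80 (SD, n = 4) in subcutaneous control, 11.03 ± 1.02 (n = 4) in gonadal control, 12.29 ± 0.72 (n = 5) in gonadal ad libitum and 13.16 ± 1.02 (n = 5) in subcutaneous ad libitum fat. That is the order of the 4 groups, and each group's range overlapped that of its neighbour in the order. Probe set 2 ranged from 7.67 to 8.38 in subcutaneous control fat and from 8.80 to 11.76 in subcutaneous ad libitum fat. Probe set 3 ranged from 6.11 to 6.76 and from 7.22 to 10.90 in the same groups. The order of the 4 group means was the same for all 3 probe sets.

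NNAT was chosen by its difference between feeding groups in subcutaneous fat, so for all members that difference is described without a test. It was 3.18 ± 0.56 (SE; 9.08-fold), 2.66 ± 0.52 (6.33-fold) and 3.03 ± 0.63 (8.19-fold) on the log2 scale for probe sets 1, 2 and 3, higher in ad libitum dogs. The 3 were past an adjusted p of 0.05 (limma, Benjamini-Hochberg over all probe sets tested), as were 2.36% of all probe sets tested. Since the members were chosen on these values, nothing is read from that count. The subcutaneous groups of the 3 did not overlap, a pattern that 10.1% of all probe sets tested showed in either direction. The difference of probe set 1 was 3.81 without the 4 arrays carrying muscle or ciliated-cell transcripts, 2.64 with the actin signal as a covariate, and between 2.97 and 3.61 with 1 dog left out. Without those 4 arrays 0 member probe sets were past the threshold, and with the actin covariate also 0.

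Measures of tissue and RNA moved with the same groups. The adipocyte marker score was -0.38, -1.78, -1.06 and -0.36 in subcutaneous control dogs 1, 3, 4 and 9, against 0.80, -1.18, 0.57, 0.53 and 0.26 in subcutaneous ad libitum dogs 2, 5, 6, 7 and 8. Ad libitum dog 5, the lowest of its group in NNAT, was also the lowest in this score. LEP, named below as rising with feeding in subcutaneous fat, is 1 of the 12 adipocyte markers, so the score contains part of that rise. The markers moved unequally between subcutaneous control and ad libitum fat. The means were 3.74 and 7.31 for GPAM and 8.96 and 11.67 for LEP, but 15.26 and 15.41 for FABP4. The stromal progenitor score, over 12 of 12 markers, ran from 0.74 to 1.64 in subcutaneous control fat and from -0.59 to 1.48 in subcutaneous ad libitum fat. The smooth muscle and pericyte score, over 7 of 8 markers, ran from -0.38 to 0.58 in subcutaneous control fat and from -2.21 to -0.23 in subcutaneous ad libitum fat. The signal of the 3' actin control probe set minus that of the 5' set, which grows as RNA gets shorter, was 4.75 ± 1.02 (SD, n = 4) in subcutaneous control and 3.49 ± 0.77 (SD, n = 5) in subcutaneous ad libitum arrays, and the exact two-sided permutation test over 126 regroupings gave p = 0.0873. In gonadal arrays it was 2.91 ± 0.91 and 3.31 ± 0.91 (exact p = 0.5317). The part of these in the NNAT difference was not tested, and in whole fat fewer cells of a type and less RNA per cell cannot be told apart.

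**Figure D2:**
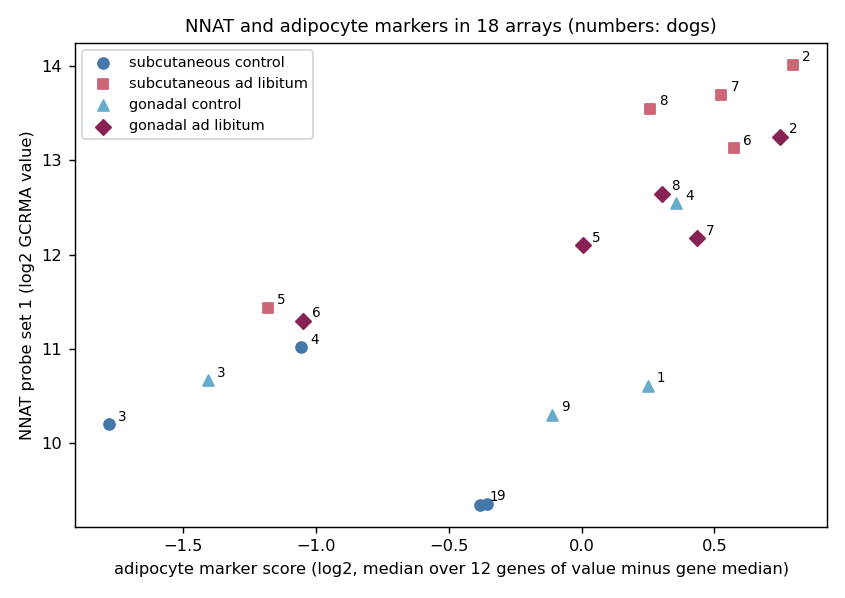
NNAT probe set 1 (y axis, log2 GCRMA value) against the adipocyte marker score of the same array (x axis, log2, median over 12 genes of the value minus the gene's median over arrays), with dog numbers and 4 symbols for the groups. Subcutaneous control dogs 1 and 9 have the lowest NNAT values, 9.35 and 9.36, at scores of -0.38 and -0.36, and subcutaneous ad libitum dog 5 sits low on both axes for its group.

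Gonadal fat comes from the same dogs, and NNAT was chosen by its subcutaneous difference. The members were chosen with earlier results of these data known, so the gonadal comparison is not independent of that choice. There the ad libitum minus control difference was 1.26 ± 0.56 (SE) for probe set 1, with an unadjusted p of 0.0383 and an adjusted p of 0.99994 (limma). Probe sets 2 and 3 differed by 0.54 ± 0.52 and 0.61 ± 0.63, with unadjusted p of 0.3157 and 0.3474. Their intervals at the confidence level of 95% ran from 0.08 to 2.45, from -0.56 to 1.64 and from -0.72 to 1.93. None of the 10 member probe sets passed the test in gonadal fat, where 0% of the probe sets tested passed. The number with an unadjusted p under 0.05 was 531 over all probe sets and 1 among the members. None of the members had groups that did not overlap, which 0.768% of all probe sets did.

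The 2 depots of a dog can be set side by side. In control dogs, NNAT was higher in gonadal than in subcutaneous fat in 4 of 4 dogs for all 3 probe sets, by 1.05 ± 0.59, 0.88 ± 0.55 and 1.08 ± 0.66 (SE). With the actin signal as a covariate these differences were 0.25, 0.11 and 0.02. In ad libitum dogs, it was lower in gonadal fat in 4 of 5 dogs for all 3 probe sets, by a difference of -0.87 ± 0.53, -1.24 ± 0.49 and -1.35 ± 0.59. Dog 5 was the exception, with 12.10 in gonadal and 11.44 in subcutaneous fat for probe set 1. The response to feeding in gonadal minus that in subcutaneous fat was -1.92 ± 0.79, -2.12 ± 0.74 and -2.43 ± 0.89. These 3 comparisons use the subcutaneous arrays on which NNAT was selected and are given without a test.

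The transcription factors and regulators PLAGL1 and PEG3 come next. PLAGL1 encodes a zinc finger transcription factor that restrains cell division and regulates other imprinted genes, and 1 probe set measured it. It read 7.90, 7.77, 7.75 and 7.64 in subcutaneous control dogs 1, 3, 4 and 9, and 5.94, 8.12, 6.92, 6.35 and 6.84 in subcutaneous ad libitum dogs 2, 5, 6, 7 and 8. The control arrays lay close together, and 4 of the 5 ad libitum arrays were below all of them, with dog 5 above all of them. The difference was -0.93 ± 0.32 (SE), and without dog 5 it was -1.25. In gonadal fat PLAGL1 read 7.24, 7.73, 7.23 and 6.99 in control dogs and 6.82, 7.55, 7.59, 7.54 and 6.94 in ad libitum dogs, and the groups overlapped with a difference of -0.01 ± 0.32 (limma adjusted p = 0.99994).

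PLAGL1 was lower in gonadal than in subcutaneous fat in 4 of 4 control dogs, by a difference of -0.47 ± 0.34 (adjusted p = 0.471, limma). In ad libitum dogs it was higher in gonadal fat in 4 of 5 dogs, by 0.46 ± 0.31 (adjusted p = 0.389). The exception was again dog 5, with 8.12 in subcutaneous and 7.55 in gonadal fat. The sign of each PLAGL1 difference was thus opposite to that of NNAT in subcutaneous feeding and in both depot comparisons. All of these use subcutaneous arrays on which NNAT was selected, so they are not separate agreements. Dog 5 departed from its group for both genes. Its subcutaneous array also had the lowest adipocyte score (-1.18) and the highest stromal progenitor score (1.48) of its group. Without dog 5, 2703 of all probe sets passed in subcutaneous feeding, against 506. A relation between the 2 genes was not tested.

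PEG3, a large zinc finger protein expressed from the paternal copy, had 3 probe sets, and 1 of them passed the filter. It read 4.76, 5.61, 4.51 and 5.18 in subcutaneous control fat and 4.31, 4.02, 4.63, 5.18 and 5.41 in subcutaneous ad libitum fat. In gonadal fat it read 5.02, 5.19, 5.72 and 5.28 in control dogs and 4.82, 6.56, 4.95, 5.60 and 5.70 in ad libitum dogs. The feeding groups overlapped in both depots, and the differences were -0.30 ± 0.35 (SE) in subcutaneous and 0.22 ± 0.35 in gonadal fat. In all 5 ad libitum dogs PEG3 was higher in gonadal than in subcutaneous fat, by 0.51, 2.54, 0.32, 0.42 and 0.28 in dogs 2, 5, 6, 7 and 8, so dog 5 gave most of the mean difference of 0.81 ± 0.33 (adjusted p = 0.146, limma). Without the 4 arrays carrying muscle or ciliated-cell transcripts that difference was 1.24 and passed the test (adjusted p = 0.0397). Gonadal ad libitum fat was then represented by dogs 5, 7 and 8 alone, so dog 5 weighed more. In control dogs it was 0.29 ± 0.37 (adjusted p = 0.709).

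**Figure D3:**
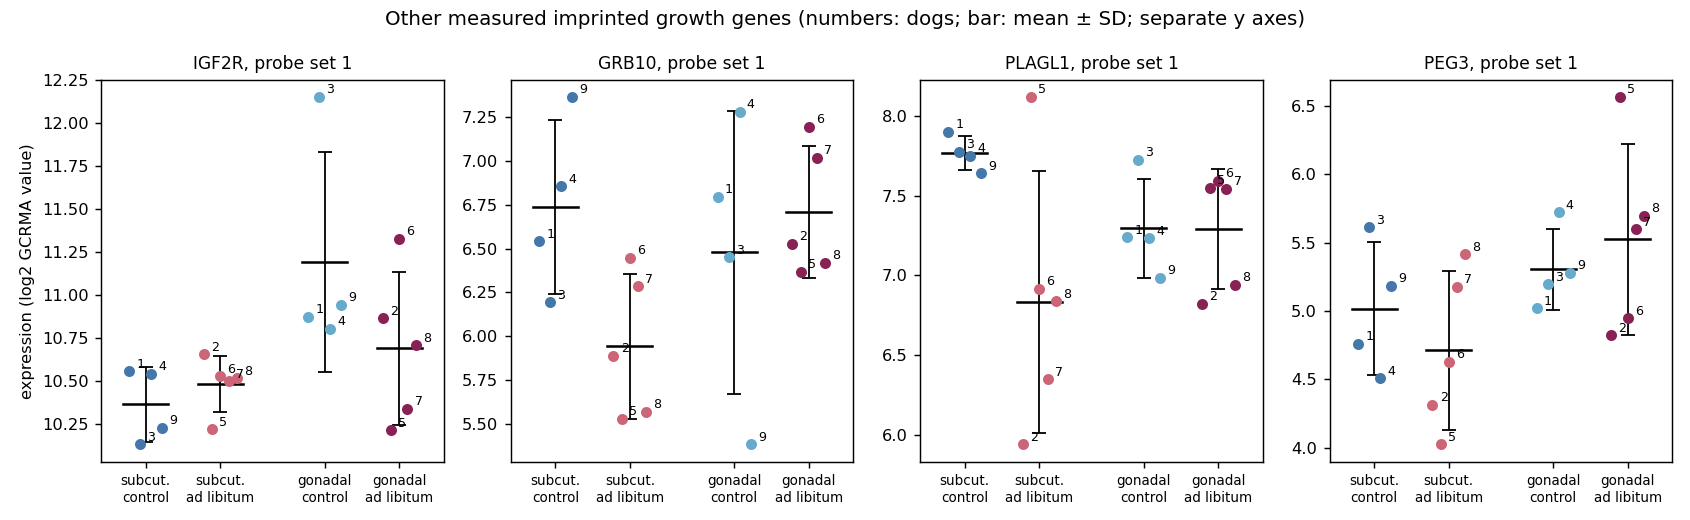
Log2 GCRMA value (y axes, 1 scale per gene) of the probe set with the highest mean of IGF2R, GRB10, PLAGL1 and PEG3 in each array, by depot and feeding group (x axes), with dog numbers, group means and SD (n = 4 or 5). IGF2R of gonadal control dog 3 stands at 12.15, PLAGL1 of subcutaneous ad libitum dog 5 at 8.12 and PEG3 of gonadal ad libitum dog 5 at 6.56.

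GRB10 encodes an adaptor that binds the insulin and IGF1 receptors and dampens their signal. Of its 4 probe sets 2 passed the filter, Cfa.18028.1.S1_at (probe set 1) and CfaAffx.6080.1.S1_s_at (probe set 2), with an r of 0.893 over 18 arrays. Probe set 1 read 6.54, 6.19, 6.85 and 7.36 in subcutaneous control fat and 5.89, 5.53, 6.45, 6.29 and 5.57 in subcutaneous ad libitum fat. The groups overlapped, and the difference was -0.79 ± 0.34 (SE) for probe set 1 and -0.60 ± 0.44 for probe set 2. In gonadal fat probe set 1 read 6.80, 6.45, 7.28 and 5.38 in control dogs and 6.53, 6.37, 7.19, 7.02 and 6.42 in ad libitum dogs, a difference of 0.23 ± 0.34 (adjusted p = 0.99994, limma).

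GRB10 was higher in gonadal than in subcutaneous fat in each ad libitum dog. Probe set 1 was higher in gonadal fat by 0.64, 0.84, 0.75, 0.73 and 0.85 in dogs 2, 5, 6, 7 and 8, an SD of 0.09 around the mean of 0.76 ± 0.32 (SE of the fit, which pools the spread of all arrays). Probe set 2 was higher in the same 5 dogs, by 0.42 to 1.67 (SD 0.50) with a mean of 1.07 ± 0.41. It lay near the floor of 4: its mean in subcutaneous ad libitum fat was 3.92. There 2 of 5 arrays were at or above the floor, against 5 of 5 in gonadal ad libitum fat, which limits its size. The adjusted p were 0.157 and 0.123 (limma), and neither passed. With dog 9 left out, probe set 2 passed (adjusted p = 0.0397). Dog 9 is a control dog with no array in this comparison, so the difference stayed the same. Only the pooled spread and the adjustment changed. In control dogs 1, 3 and 4, probe set 1 was higher in gonadal fat by 0.25, 0.26 and 0.43. In dog 9 it was lower by a difference of -1.98, with the highest subcutaneous and the lowest gonadal value of the control dogs, and probe set 2 behaved likewise at -2.19. The mean depot difference in control dogs was -0.26 ± 0.36 with dog 9 and 0.31 without that dog.

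IGF2R encodes the cation-independent mannose 6-phosphate receptor, which takes up IGF2 for breakdown and sorts lysosomal enzymes. All 3 of its probe sets passed the filter, and Cfa.1412.1.S1_at (probe set 1) was the brightest. It read 10.55, 10.13, 10.54 and 10.22 in subcutaneous control, 10.65, 10.22, 10.53, 10.50 and 10.51 in subcutaneous ad libitum, 10.87, 12.15, 10.80 and 10.94 in gonadal control and 10.86, 10.21, 11.33, 10.34 and 10.71 in gonadal ad libitum fat. Subcutaneous fat varied little, and gonadal control dog 3 stood above all other arrays. The feeding difference was 0.12 ± 0.26 (SE) in subcutaneous and -0.50 ± 0.26 in gonadal fat (adjusted p = 0.99994, limma).

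IGF2R probe set 1 was higher in gonadal fat in 4 of 4 control dogs, by 0.83 ± 0.28 (SE; adjusted p = 0.108, limma). Probe sets 2 and 3 were higher in 2 of 4 dogs, with differences of 0.38 ± 0.33 and 0.46 ± 0.39. Without dog 3 the 3 differences were 0.43, -0.15 and -0.11, so the agreement of the probe sets rested on that dog. In ad libitum dogs the difference was 0.21 ± 0.25 for probe set 1 (adjusted p = 0.660). The gonadal array of control dog 3 had the highest IGF2R value for all 3 probe sets, with an adipocyte score of -1.41 and a smooth muscle and pericyte score of 2.37, the highest of any array. The gonadal array of ad libitum dog 6, second highest for all 3 probe sets, was the one with the high ciliated epithelium score. The part of these transcripts in the IGF2R values was not tested.

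**Figure D4:**
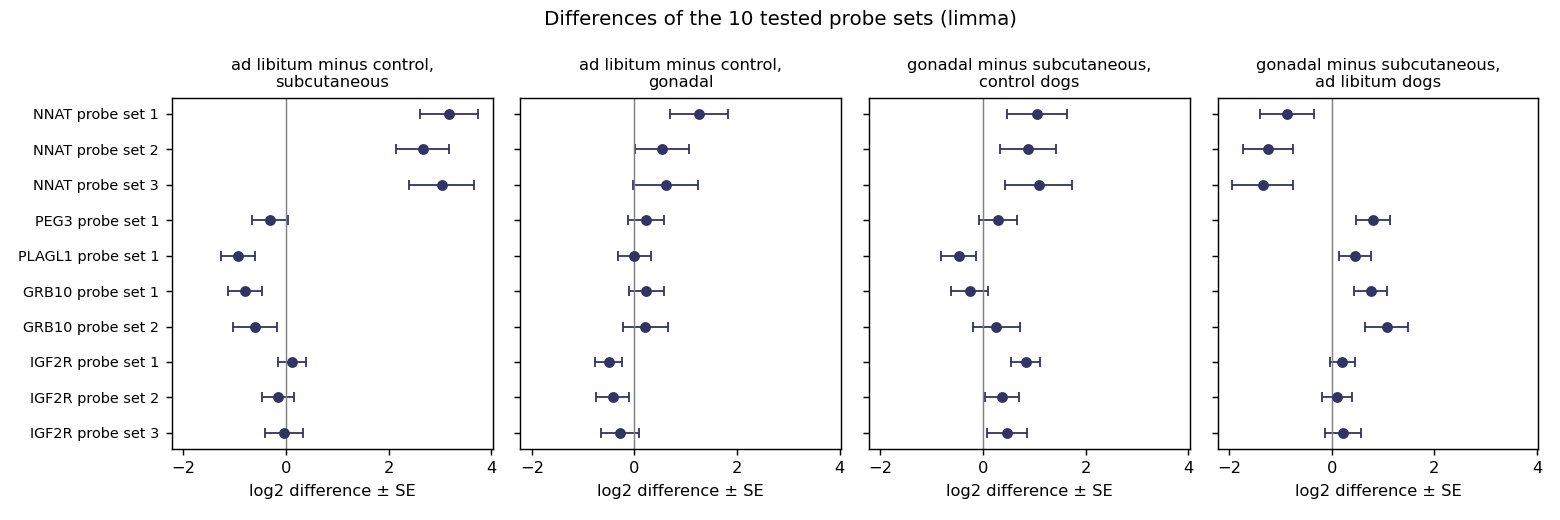
Log2 difference ± SE (x axes, limma) of the 10 tested member probe sets (y axis) for ad libitum minus control feeding in each depot and for gonadal minus subcutaneous fat in each feeding group. NNAT lies at 2.66 to 3.18 in subcutaneous feeding, where it was selected, and the other members between -0.93 and 0.12.

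Over the depot comparisons, 0 of the 7 member probe sets outside NNAT passed in either feeding group (limma), where in control and in ad libitum dogs 2.92% and 7.19% of all probe sets passed. The number of the 7 with an unadjusted p under 0.05 was 1 in control dogs (IGF2R probe set 1) and 3 in ad libitum dogs (PEG3 and both of GRB10), beside 4376 and 5058 of the 21484 probe sets tested. Every control dog moved the same way for 5 of the 10 (NNAT 3 and IGF2R 1 higher in gonadal fat, PLAGL1 lower) and every ad libitum dog for 3 of the 10 (PEG3 and both GRB10 probe sets, higher). All probe sets showed such agreement in 29.4% and 28.2% of cases. The interaction of depot and feeding was passed by 0 of the 7 and by 0% of all probe sets (limma), with 1 of the 7 (GRB10 probe set 1) and 1344 of all at an unadjusted p under 0.05. The median difference over the 10 probe sets, beside that over all tested, was -0.10 beside 0.01 in subcutaneous feeding, 0.22 beside 0.01 in gonadal feeding, 0.42 beside 0.04 for depot in control dogs and 0.21 beside 0.00 for depot in ad libitum dogs. Only members that passed the filter enter these counts, and the values of NNAT in them are a description.

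The other 3 measured genes stayed low. Both probe sets of MEST, an enzyme-like protein of the endoplasmic reticulum, were below the floor of 4 in all 18 arrays, with a highest value of 3.04. Both probe sets of DLK1 were as well, with a highest value of 2.69. The probe set of IGF2, the growth factor that IGF2R removes, was between 1.75 and 2.47 in the 9 subcutaneous arrays and reached the floor only in gonadal ad libitum dogs 5 and 6, at 4.28 and 4.20. Its gonadal control arrays ranged from 1.98 to 3.82. These 3 genes were not tested, and values under the floor do not show that a transcript is absent. The remaining 2 probe sets of GRB10 and 2 of PEG3 also failed the filter, and of these 4 only CfaAffx.6080.1.S1_at of GRB10 reached the floor, at 4.01 in gonadal control dog 3.

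By the largest Pearson correlation with NNAT probe set 1 over the 18 arrays of 9 dogs, the 5 genes most like it were ENY2 (r = 0.937), a subunit of transcription coactivator and mRNA export complexes, EPB41L1 (0.927), a membrane skeleton protein, FAM83A (0.925), SMYD2 (0.918), a lysine methyltransferase, and RAB28 (0.906), a small GTPase. Within each depot's 9 arrays their r was between 0.915 and 0.972 in subcutaneous and between 0.868 and 0.936 in gonadal fat. FAM83A had the widest range of the 5, with means of 3.12 in subcutaneous control, 3.83 in gonadal control, 5.91 in gonadal ad libitum and 7.67 in subcutaneous ad libitum fat. Both of its control means are below the floor of 4, which limits what its range and r show. The genes with the most negative r were LRP10 (-0.871), NFKB1 (-0.860), an NF-kappaB subunit, SPIDR (-0.857), HNRNPUL1 (-0.856) and KMT2A (-0.848), a histone methyltransferase. NFKB1 had an r of -0.954 in subcutaneous and -0.543 in gonadal fat. The arrays share dogs, feeding groups and the RNA length noted above, and the values are a description.

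Genes beside the members were read from the RefSeq gene order of the assembly UU_Cfam_GSD_1.0. NNAT lies within BLCAP, which had no tested probe set. Of the genes on either side of NNAT, neither passed the test in subcutaneous feeding: SRC differed by 0.01 ± 0.36 (SE; level means of 5.31 in control and 5.32 in ad libitum fat) and CTNNBL1 by -0.29 ± 0.12 (12.63 and 12.34). The limma adjusted p were 0.995 and 0.171. COPG2, which overlaps MEST, was at 5.50 in subcutaneous control and 6.03 in subcutaneous ad libitum fat, a difference of 0.53 ± 0.17 (adjusted p = 0.0903).

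The wider set of imprinted genes was listed as 65 symbols, of which 49 had a probe set and 21 were tested. Whether the listed genes are imprinted in the dog or in fat was not measured. In neither depot did any of the 21 pass the feeding test (limma), which 2.36% of all probe sets tested passed in subcutaneous and 0% in gonadal fat. SLC22A3, an organic cation transporter gene near IGF2R, had the smallest unadjusted p in gonadal fat, 0.006574, at a difference of -1.34 ± 0.43 (SE; adjusted p = 0.99994). Gonadal ad libitum dog 6, 1 of the 4 arrays, read 2.64 against 4.61 to 5.56 in the other ad libitum dogs, and the difference was -0.83 without that dog and -0.65 without the 4 arrays. PON2, a lactonase gene, had the smallest in subcutaneous fat, 0.003536, at 1.49 ± 0.44 with an adjusted p of 0.0744, and at 1.00 (adjusted p = 0.389) without the 4 arrays. In subcutaneous feeding 9 of 21 had a positive sign, with a median of -0.07 beside 0.00 for all genes tested.

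Between depots, 3 of the 21 rose from subcutaneous to gonadal fat in control dogs, 3 rose in ad libitum dogs and none fell in either. Of all 21484 probe sets tested, 236 rose and 391 fell in control dogs (2.92% passed). In ad libitum dogs 608 rose and 937 fell (7.19% passed). With so few genes listed, nothing is read from these counts. TFPI2, a secreted protease inhibitor, rose in both, by 2.65 ± 0.60 (SE; adjusted p = 0.0276, limma) in control and 1.88 ± 0.54 (adjusted p = 0.0447) in ad libitum dogs. It read 7.09, 5.37, 7.32 and 7.47 in subcutaneous and 9.01, 8.39, 10.03 and 10.41 in gonadal fat of control dogs 1, 3, 4 and 9, and all gonadal values were above all subcutaneous ones. In ad libitum dogs 2, 5, 6, 7 and 8 it read 7.75, 7.53, 6.27, 7.03 and 7.97 in subcutaneous and 8.33, 10.13, 7.78, 9.89 and 9.81 in gonadal fat. Dogs 2 and 6, whose gonadal arrays carried muscle or ciliated-cell transcripts, had the lowest gonadal values, and without the 4 such arrays the difference was 2.64 (adjusted p = 0.00701) in ad libitum and 2.18 (adjusted p = 0.0659, not passed) in control dogs.

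SGCE, which encodes the membrane glycoprotein epsilon-sarcoglycan and neighbours PEG10, rose in gonadal fat of ad libitum dogs by 1.11 ± 0.29 (SE; adjusted p = 0.0307, limma). It read 8.22, 8.11, 7.18, 6.86 and 7.77 in subcutaneous and 8.75, 9.22, 7.76, 8.91 and 9.03 in gonadal fat of dogs 2, 5, 6, 7 and 8, and it was higher in gonadal fat in each dog. In control dogs the difference was 0.72 ± 0.33 (adjusted p = 0.226), and it ran from 0.10 to 0.90 over 20 alternatives. CASD1, a sialic acid acetyltransferase gene, rose in control dogs by 1.06 ± 0.27 (adjusted p = 0.0478) and differed by 0.69 ± 0.25 in ad libitum dogs (adjusted p = 0.0990). SLC22A3 rose in control dogs (adjusted p = 0.0171) and WT1 in ad libitum dogs (adjusted p = 0.0147), both from subcutaneous means below the floor, 3.82 and 2.93, to gonadal means of 6.00 and 7.32. Both met the filter through their gonadal arrays, where they are high, so their depot p-values are a description. WT1 is also a marker of mesothelium, whose score was -2.51 to -2.44 in subcutaneous ad libitum and 0.16 to 3.73 in gonadal ad libitum arrays, over 7 of 10 markers. WT1 is 1 of these 7, so the score contains part of the WT1 difference. The part of mesothelium in these depot differences was not tested.

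These 6 calls depended on the fit. Of 20 alternatives, TFPI2 passed in 11 in control and 12 in ad libitum dogs, SGCE in 15, CASD1 in 6 and WT1 in 17, and SLC22A3 passed in 14 of 19. Without the 4 arrays CASD1 did not pass (1.07, adjusted p = 0.135), while SGCE, WT1 and SLC22A3 did (adjusted p = 0.0107, 0.0121 and 0.00203). The adjusted p ran up to 0.127 and 0.175 for TFPI2 in control and ad libitum dogs, 0.145 for SGCE, 0.404 for CASD1, 0.0623 for WT1 and 0.197 for SLC22A3. Leaving out 1 dog ended the TFPI2 call for dogs 1, 3, 4 and 9 in control and dogs 1, 4, 5, 7 and 8 in ad libitum dogs, the SGCE call for dogs 5, 7 and 8, the CASD1 call for dogs 1, 3, 4, 7, 8 and 9, the WT1 call for dogs 5, 6 and 7 and the SLC22A3 call for dogs 1, 3 and 4. Leaving out a dog of the other feeding group changes only the pooled spread and the adjustment, not the difference. No difference changed sign, and that of CASD1 in control dogs ran from 0.52 to 1.27. The actin signal also differed between the depots of control dogs, 4.75 in subcutaneous and 2.91 in gonadal arrays. With it as a covariate, 199 of all probe sets passed for depot in control dogs, against 627. That fit is among the alternatives counted here.

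**Figure D5:**
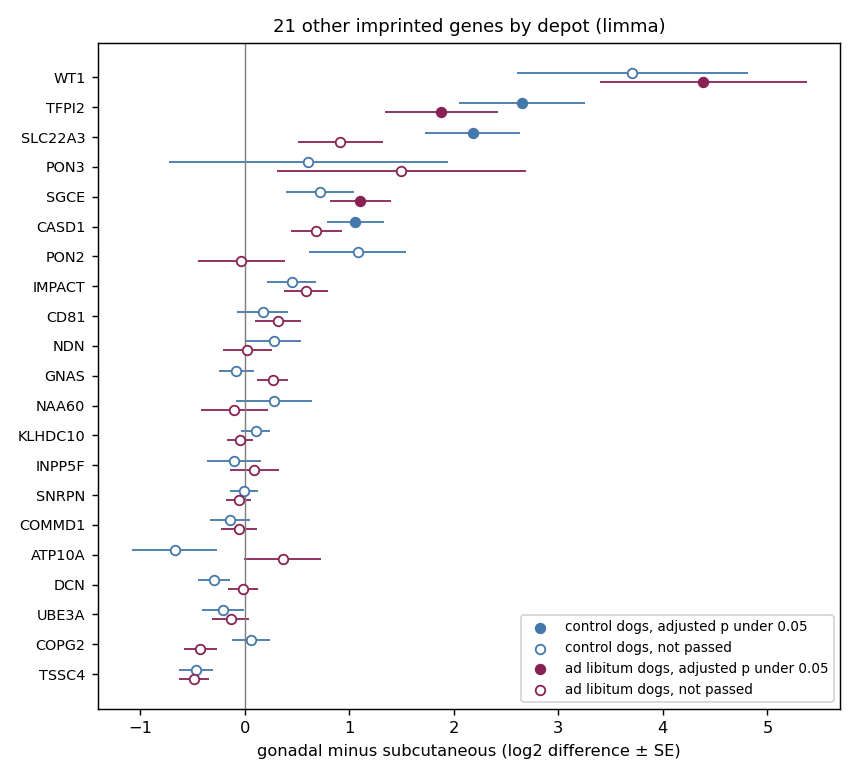
Gonadal minus subcutaneous log2 difference ± SE (x axis, limma) of the 21 tested genes of the wider imprinted list, outside the 10 members (y axis), in control and ad libitum dogs. Filled points have an adjusted p under 0.05; TFPI2 is filled in both groups, SLC22A3 and CASD1 in control dogs and SGCE and WT1 in ad libitum dogs.

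Partner genes of the members were read from 4 further lists. Of all probe sets tested, 2.36% passed for feeding in subcutaneous fat and 0% in gonadal fat. For depot, 2.92% passed in control and 7.19% in ad libitum dogs. Of 14 genes of IGF2 handling, 7 were tested, and 1 passed in any comparison: IGFBP6, a binding protein with a preference for IGF2, fell from 13.46 in subcutaneous to 11.89 in gonadal fat of control dogs, a difference of -1.57 ± 0.31 (SE; adjusted p = 0.0139, limma; not passed without dog 1 or dog 3, at 0.0878 and 0.0967). Of 14 genes around DLK1 action, 7 were tested: SOX9, a progenitor transcription factor, rose in gonadal fat of control dogs (adjusted p = 0.0401) from a mean below the floor, 2.96, to 4.74, and FN1, fibronectin, fell in gonadal fat of ad libitum dogs by a difference of -1.87 ± 0.37 (adjusted p = 0.00661). SOX9 met the filter through its gonadal arrays, where it is high, so its depot p-value is a description. FN1 passed in 20 of 20 alternatives and SOX9 in 8 of 19. Without the 4 arrays IGFBP6 and FN1 passed (adjusted p = 0.0288 and 0.0227) and SOX9 did not (0.149).

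Of 9 genes of the calcium pump, whose small regulators NNAT resembles, 5 were tested. ITPR1, a calcium release channel, rose in gonadal fat of control dogs from 6.91 to 8.63 (1.71 ± 0.36, SE; adjusted p = 0.0191, limma). PLN, phospholamban, rose in gonadal fat of ad libitum dogs from 4.88 to 7.95 (3.07 ± 0.86; adjusted p = 0.0404). Each passed in 12 of 20 alternatives, and neither without the 4 arrays (adjusted p = 0.0699 for ITPR1 and 0.0975 for PLN). PLN is at home in smooth and cardiac muscle. The smooth muscle and pericyte score was -2.21 to -0.23 in subcutaneous ad libitum and -0.38 to 1.47 in gonadal ad libitum arrays, and its part in the PLN difference was not tested. None of the 5 passed for feeding in either depot. Of 10 genes listed for fat expansion beside MEST, 6 were tested and 2 rose with feeding in subcutaneous fat, NPR3 and LEP, which were known from earlier results of these data and are not independent support. NPR3 passed in 7 of 19 alternatives, with an adjusted p of up to 0.223, and LEP in 5 of 19, with up to 0.310. Without the 4 arrays neither passed (adjusted p = 0.132 and 0.208).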

How the data were processed

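The 18 Affymetrix canine arrays were used as deposited by the authors: 1 log2 value per probe set and array from GCRMA, per the submitters' processing notes, with RNA from Trizol extraction and 3' one-cycle labelling per the labels' protocols. The log base was inferred from the range, 0.68 to 16.51. The GCRMA version and options were not given in the sources used here, nor were scan dates. Array medians were 3.65 to 3.87; the number of arrays limits the precision. Gene symbols came from the platform annotation (29254 probe sets with 1 symbol, 439 with several, 13231 with none; 111 control probe sets left out).

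limma 3.58.1 (lmFit, eBayes, R 4.3.3, statmod 1.5.0) fitted 4 group means over the 18 arrays (14 residual degrees of freedom), without a block for the dog, on the 21484 probe sets that reached log2 4 on 4 or more arrays. The 5 contrasts were feeding in each depot, depot in each feeding group and their interaction; p-values were two-sided and adjusted by Benjamini-Hochberg, threshold 0.05. Each gene was represented by the probe set that was brightest on average. All 10 members were named; of each list up to 4 genes with the smallest p per comparison; as genes like NNAT the 5 highest and the 5 lowest r. The p-values of the fit rest on the spread between arrays within groups, pooled over both depots. They count the 2 arrays of a dog as independent, also in the depot comparisons and the interaction. The fit was also run on simulated data with added differences. Those data had no dog effect, so they cannot show what counting the 2 arrays as independent does.

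The animal numbers in the labels tie 2 arrays to 1 dog, which is where the pairing comes from; the correlation of a dog's 2 deviations from the group means ran from -0.05 to 0.53. The members, lists and comparisons were chosen with earlier results of these data known. Alternatives were other filters, normalizations, moderation and arrays, the actin signal as a covariate, the dog as a block, and each dog left out.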

Additional observations from a re-analysis of the deposited data

Results flagged for a closer look

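In 40 groups of 4 or 5 arrays of the tested member probe sets, 3 had 1 array far from the others by Dixon's criterion, which chance alone passes in about 1 in 20 groups. NNAT probe set 1 was 12.55 in gonadal control dog 4, against 10.31 to 10.67 in the other 3 control dogs. IGF2R probe set 1 was 12.15 in gonadal control dog 3, against 10.80 to 10.94 in the others. IGF2R probe set 3 was 10.25 in the same array, against 8.29 to 8.44.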

How the results depend on the processing

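The NNAT feeding and depot differences kept their sign in all alternatives run, but with the actin covariate the depot difference in control dogs was 0.25, 0.11 and 0.02 for probe sets 1 to 3. In subcutaneous feeding the count of member probe sets past the threshold, 3, went to 1 with no filter, to 0 when only the arrays of the comparison were fitted, to 0 with the actin covariate and to 0 without the 4 arrays carrying muscle or ciliated-cell transcripts, and ranged from 0 to 4 with 1 dog left out (with PLAGL1 without dog 5). The members were chosen on this comparison, so these counts are no evidence. For depot in ad libitum dogs the count of 0 went to 1 (PEG3) without those 4 arrays, and from 0 to 1 with 1 dog left out (GRB10 probe set 2 without dog 9, and NNAT probe set 2 without dog 5, which is no test). Dog 9 is a control dog with no array in that comparison. The count of 0 in gonadal feeding, depot in control dogs and interaction held in every alternative. Leaving out subcutaneous ad libitum dog 7 as well, an alternative chosen after seeing the data, gave the same member counts, 0 and 1 (PEG3), and -0.06 for IGF2R depot in ad libitum dogs. Signs changed as follows: PEG3 depot in control dogs was -0.15 with the actin covariate, PLAGL1 gonadal feeding 0.048 and IGF2R depot in ad libitum dogs -0.064 without the 4 arrays, and IGF2R subcutaneous feeding -0.042 as the median over its probe sets. With 1 dog left out, PLAGL1 gonadal feeding ranged from -0.11 to 0.14, PEG3 gonadal feeding from -0.039 to 0.40, GRB10 gonadal feeding from -0.14 to 0.50, and depot in control dogs from -0.020 to 0.52 for PEG3, -0.49 to 0.31 for GRB10, and -0.15 to 0.62 and -0.11 to 0.77 for IGF2R probe sets 2 and 3. The other probe sets of GRB10 and IGF2R changed sign more widely: without dog 3 the interaction was 0.26 and 0.33 for IGF2R probe sets 2 and 3, against -0.27 and -0.24, and without dog 9 that of GRB10 probe set 2 was -1e-04, against 0.81. Subcutaneous feeding of IGF2R probe set 3 changed sign in 6 of 19 alternatives. The cause was not tested.

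With the dog as a replicate block (random, correlation 0.168, or fixed for the depot comparisons) no member call changed: 3 member probe sets passed in subcutaneous feeding and 0 elsewhere, while over all probe sets 1346 and 2495 passed with the random block for depot, in control and in ad libitum dogs, against 627 and 1545. The fixed block ended the call of ITPR1 (adjusted p = 0.0513). Of all probe sets, 506 passed in subcutaneous feeding; the count was 173 with no filter, 309 after quantile normalization, 60 with only the arrays of the comparison, 1 with the actin covariate, 5 without the 4 arrays and 3 to 2703 with 1 dog left out. For depot in control dogs it was 275 with no filter, 412 with only those arrays, 199 with the actin covariate, 341 without the 4 arrays and 143 to 1050 with 1 dog left out, and in ad libitum dogs 984 with only those arrays and 497 to 1620 with 1 dog left out. The interaction count was 0 to 5 with 1 dog left out. The alternatives for list genes were added after seeing the data.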
